A study of Homo sapiens with 12 samples.

Results

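Glycolysis, the pentose phosphate pathway and the transport of glucose, lactate and pyruvate are described here through 36 genes named by their role in these pathways. The members are 4 genes of glucose uptake and its control, 9 enzymes of upper glycolysis, 3 PFKFB enzymes, 8 enzymes of lower glycolysis, 3 enzymes of the pentose phosphate pathway, 5 genes of pyruvate dehydrogenase control and 4 monocarboxylate carriers. Their symbols matched 36 of the 60664 Ensembl genes in the table of counts. Of these, 35 had a read in any library and the same 35 passed the filter on low counts, which 17349 genes of the whole table passed. PDK4, a kinase that switches off pyruvate dehydrogenase during fasting, had 0 counts in all 12 libraries, which allows up to 3 counts in each.

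Glycolysis breaks glucose down to pyruvate in the cytosol and yields ATP and NADH. Pyruvate is then reduced to lactate, which leaves the cell on monocarboxylate carriers, or is oxidised in mitochondria after the pyruvate dehydrogenase complex has turned it into acetyl-CoA. The pentose phosphate pathway branches off at glucose 6-phosphate and supplies NADPH and ribose for nucleotides. Proliferating lymphoblasts draw on all of these routes, and TXNIP and ARRDC4 are alpha-arrestins that take glucose transporters off the cell surface.

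RNA was measured in TOM-1, a B-cell precursor acute lymphoblastic leukaemia line that carries the Philadelphia chromosome, and in RS4;11, a line of the same lineage with a rearranged KMT2A gene. Both lines are labelled wild type and were grown in RPMI with serum, and each was cultured for 24 h without drug or with 1000 ng/ml of ADI-PEG20, a pegylated arginine deiminase that converts the arginine of the medium to citrulline. The title of the study concerns the lack of ASS1, the enzyme with which cells begin to rebuild arginine from citrulline, in leukaemia with the Philadelphia chromosome. There were 3 libraries in each of the 4 groups (TOM-1 control, TOM-1 ADI-PEG20, RS4;11 control and RS4;11 ADI-PEG20), the labels do not say whether they came from separate cultures, and each arm of the comparison is 1 cell line, so the p-values measure only the spread between these libraries.

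Libraries held 18958144 to 35956959 counts. All 9 B-lineage markers were measured in both lines, and no library had more than 6 counts of a T-cell or erythroid marker. Myeloid markers were not all absent. MPO averaged 15.3 CPM in TOM-1 controls and 0.427 CPM in RS4;11 controls. CSF1R averaged 4.21 CPM in TOM-1 controls, 0.450 CPM in treated TOM-1 and 16.7 CPM in RS4;11 controls. CD14 and LYZ averaged at most 0.872 CPM in any group. HOXA9 and MEIS1, which mark KMT2A-rearranged leukaemia, were at 0 in TOM-1 and at mean levels of 76.8 and 70.5 CPM in RS4;11 controls. The library labelled TOM-1 control replicate 3 stood apart from the rest: 14963 genes had a read there against 19857 to 21997 elsewhere, and ribosomal protein genes took 19.75% of its counts against 5.91% to 9.89%. Each count of called genes is therefore also given without it. Levels are given as CPM, counts relative to library size after TMM scaling, which is a share of the poly(A) RNA, so less RNA per cell and fewer cells of a kind cannot be told apart. A gene is called when its adjusted p in edgeR's quasi-likelihood test is under 0.05.

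In TOM-1, ADI-PEG20 lowered most of the pathway. Of the 35 members tested, 22 fell and 5 rose, beside 15.9% of all tested genes called lower and 15.9% called higher. All 8 members of lower glycolysis, all 3 of the pentose phosphate pathway and 7 of 9 in upper glycolysis fell. The 5 that rose were SLC2A3, TXNIP, ARRDC4, PFKFB3 and SLC16A6. The median log2 fold change over the 35 members was -0.84, or -0.96 over the 34 left when PFKFB2, which had no read in TOM-1, is set aside; the median over all tested genes was 0.05. Without TOM-1 control replicate 3, 24 members fell and 6 rose, beside 19.8% of genes called lower and 21.8% called higher, and the median was -0.87 against 0.00 for all genes. No call of a member in TOM-1 was lost when any of the 12 libraries was left out.

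**Figure D1:**
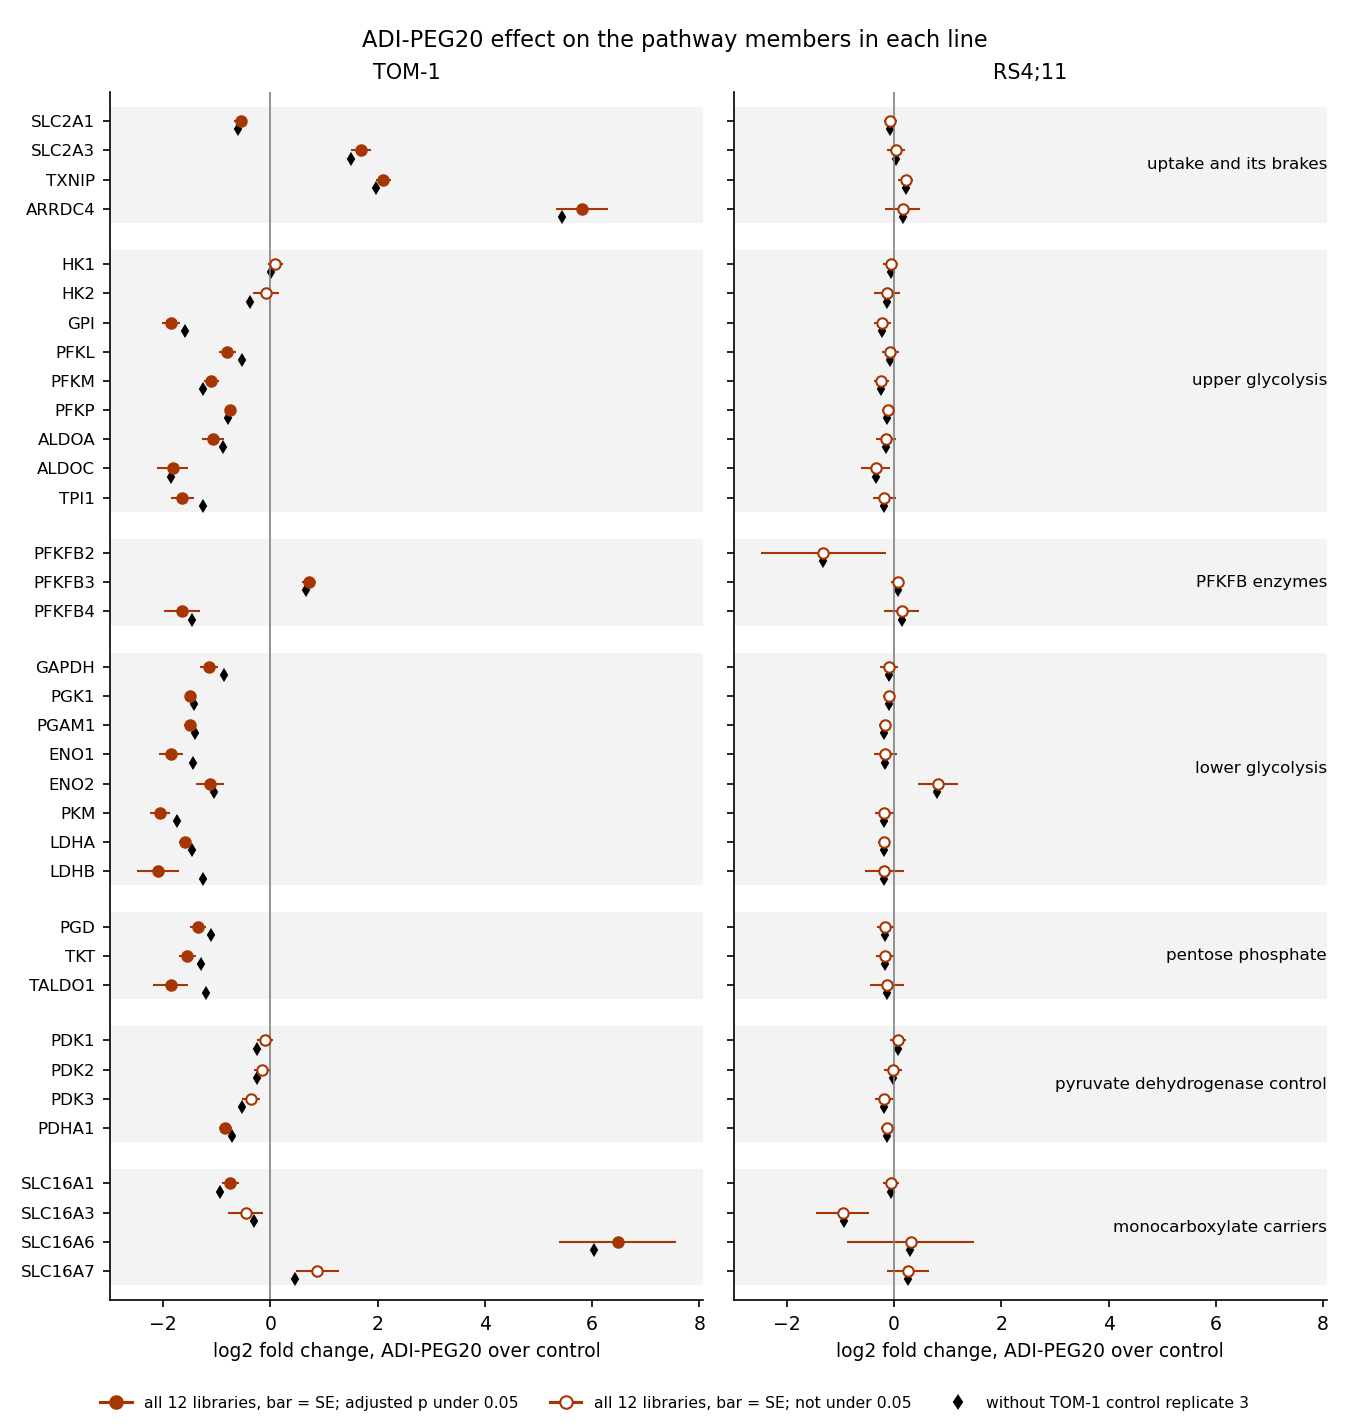
Log2 fold change of 35 members (rows, grouped by role in shaded blocks) with ADI-PEG20 over control in TOM-1 (left) and RS4;11 (right), on the same axis; circles are the estimates from all 12 libraries with the SE as bar, filled where the adjusted p is under 0.05, and diamonds are the estimates without TOM-1 control replicate 3. Most enzymes lie left of 0 in TOM-1 and ARRDC4 and SLC16A6 lie far to the right, while in RS4;11 no circle is filled; PFKFB2 has no read in TOM-1 and no point there.

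Glucose uptake showed opposite changes within the same small group. SLC2A1, which encodes the widespread glucose transporter GLUT1 (ENSG00000117394), stood at 61.8, 65.0 and 55.6 CPM in the TOM-1 controls and at 41.5, 44.0 and 39.5 CPM with ADI-PEG20. Every treated library was below every control library, and the log2 fold change was -0.55 ± 0.12 (SE, n = 3 per group, adjusted p = 0.00414). SLC2A3, which encodes the high-affinity transporter GLUT3 (ENSG00000059804), went the other way, from 32.0, 26.2 and 18.5 CPM to 80.1, 86.8 and 81.6 CPM. Its groups did not overlap either, and its log2 fold change was 1.69 ± 0.18 (adjusted p = 4.41e-05).

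Per kilobase of exon, SLC2A3 made up 24.1% ± 4.06 (SD, n = 3) of the summed SLC2A1 and SLC2A3 level in TOM-1 controls and 60.4% ± 0.836 with ADI-PEG20. In RS4;11 its share was 35.3% ± 2.70 in controls and 37.0% ± 3.09 with the drug. The transporter with the higher level per length thus differed between untreated and treated TOM-1, and in RS4;11 it was SLC2A1 in both groups.

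TXNIP and ARRDC4 both rose in TOM-1. TXNIP (ENSG00000265972, chr1:145992435-145996600, minus strand, GRCh38) measured 52.8, 61.4 and 41.0 CPM in controls and 229.9, 223 and 216 CPM with ADI-PEG20. That is a log2 fold change of 2.11 ± 0.14 (adjusted p = 3.01e-06), with the treated libraries far above the controls. ARRDC4 (ENSG00000140450, chr15:97960698-97973838, plus strand) was almost silent in TOM-1 controls, with 4 counts over the 3 libraries and none in replicate 3, and had 231 counts in the treated libraries, at 3.64, 2.98 and 2.67 CPM. The ratio of its scaled counts was 60.8, with a 95% counting interval from 23.4 to 225 that does not cover replicate error, and the edgeR estimate was 5.81 ± 0.49 in log2 (adjusted p = 1.21e-05). Without TOM-1 control replicate 3 the ratio was 46.9 (18.1 to 173).

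The promoters of these genes are shown because TXNIP and ARRDC4 are known targets of MondoA (MLXIP), which binds tandem E-boxes called carbohydrate response elements, while CACGTG is the E-box that MYC and its relatives also bind. The 250 bases before a start are given from RefSeq on GRCh38.p14, 5′ to 3′ on the gene's strand, for TXNIP (chr1:145996580-145996829, minus strand), ARRDC4 (chr15:97960453-97960702, plus strand), PFKFB3 (chr10:6202682-6202931, plus strand) and LDHA (chr11:18394313-18394562, plus strand). Capitals mark CACGTG, or in TXNIP the tandem pattern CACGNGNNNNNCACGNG, which was searched after the sequences had been seen.
TXNIP: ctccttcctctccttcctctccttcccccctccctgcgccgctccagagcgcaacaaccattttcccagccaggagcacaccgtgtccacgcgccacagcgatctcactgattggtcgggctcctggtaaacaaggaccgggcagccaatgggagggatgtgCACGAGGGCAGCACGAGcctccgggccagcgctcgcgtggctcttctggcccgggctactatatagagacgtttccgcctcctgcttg
ARRDC4: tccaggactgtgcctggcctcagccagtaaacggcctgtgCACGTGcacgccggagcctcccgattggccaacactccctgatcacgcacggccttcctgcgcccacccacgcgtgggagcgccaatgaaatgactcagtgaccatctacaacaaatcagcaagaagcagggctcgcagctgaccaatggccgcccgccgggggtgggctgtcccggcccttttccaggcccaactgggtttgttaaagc
PFKFB3: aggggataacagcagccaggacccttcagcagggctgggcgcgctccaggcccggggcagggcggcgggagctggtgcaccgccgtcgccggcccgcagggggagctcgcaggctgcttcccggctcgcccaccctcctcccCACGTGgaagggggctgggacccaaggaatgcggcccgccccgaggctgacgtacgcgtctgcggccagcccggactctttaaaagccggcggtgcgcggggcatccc
LDHA: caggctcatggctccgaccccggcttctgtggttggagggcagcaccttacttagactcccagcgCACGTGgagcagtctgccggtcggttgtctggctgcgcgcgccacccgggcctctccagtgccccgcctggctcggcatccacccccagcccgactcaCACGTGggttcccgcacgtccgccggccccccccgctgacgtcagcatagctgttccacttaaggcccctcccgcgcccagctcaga
The tandem pattern begins 88 bases before the start used for TXNIP, where CACGTG was not found. In the other windows shown, CACGTG begins 210 bases before the start used for ARRDC4, 108 before that for PFKFB3, and 185 and 87 before that for LDHA. Among the genes with CACGTG in the printed window, ARRDC4 and PFKFB3 rose in TOM-1 and LDHA fell. Windows that are not printed held CACGTG for ALDOA, ALDOC and GAPDH, which fell. They also held it for HK2 and PDK2, which were not called with all libraries. TXNIP, PFKFB3 and LDHA each have another RefSeq window, without the marked pattern, and the window shown is the one that holds it.

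RefSeq promoter windows of 300 bases (250 before the start and 50 after it, several for some genes) were at hand for 32 of the 36 members. On either strand, CACGTG was found in windows of 8 members, namely ALDOA, ALDOC, ARRDC4, GAPDH, HK2, LDHA, PDK2 and PFKFB3, and in 7.26% of all 35116 windows. ACGTG, the core of the hypoxia response element, which is also part of every CACGTG, was found in windows of 19 members and in 21.4% of all windows. TGATGCA, a core of the site that ATF4 and C/EBP proteins bind, was found for HK1 and TPI1 and in 2.63% of all windows. The tandem pattern was in 0.057% of all windows and, among the members, in that of TXNIP. By window, 8 of the members' 62 held CACGTG, 23 held ACGTG, 4 held TGATGCA and 1 held the tandem pattern. These are matches of letters, not measured binding.

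**Figure D2:**
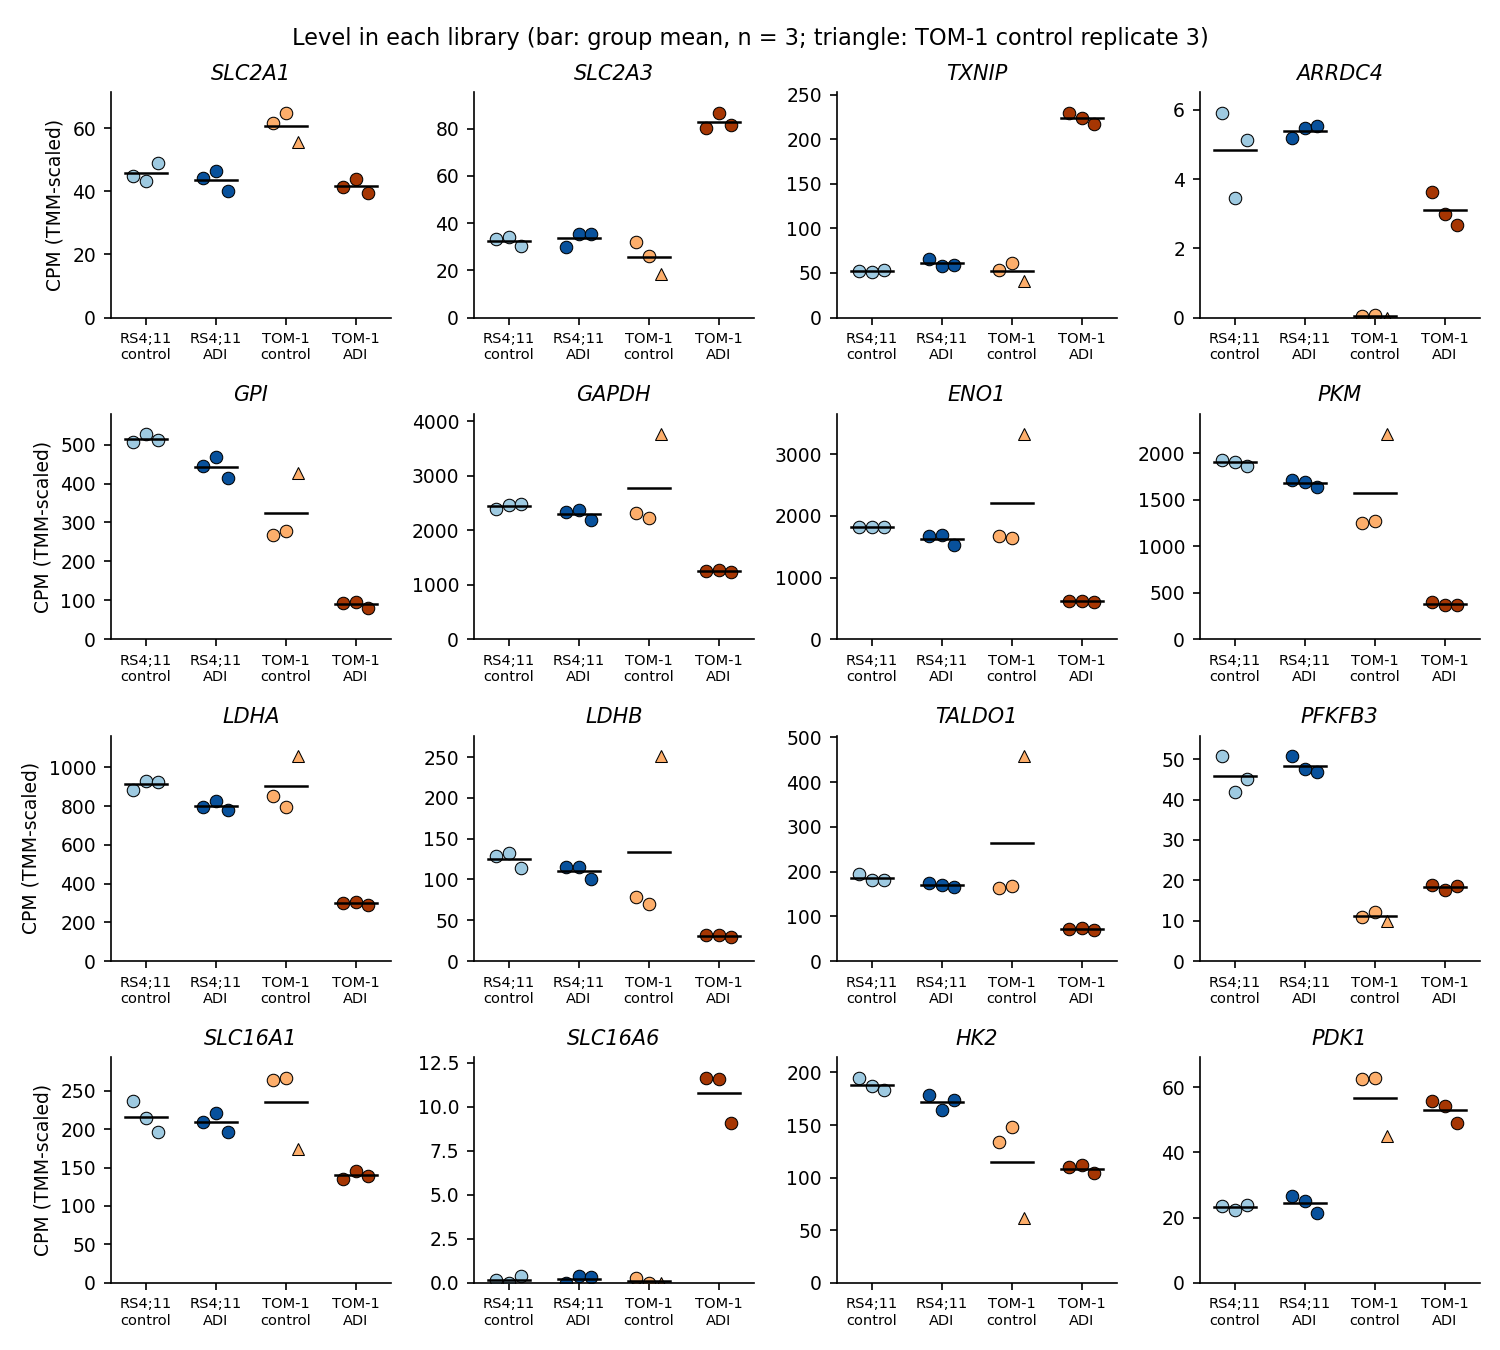
Level of 16 members in each of the 12 libraries (points; CPM on a linear axis from 0), by group along the horizontal axis, with the group mean (n = 3) as a bar and TOM-1 control replicate 3 as a triangle. TXNIP, SLC2A3 and SLC16A6 are high in the 3 treated TOM-1 libraries, the enzymes from GPI to TALDO1 are low there, and the triangle lies far above the other controls for LDHB and TALDO1 and below them for HK2.

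Hexokinases, which trap glucose as glucose 6-phosphate, did not pass the test in TOM-1. HK1 measured 24.0 ± 2.72 CPM (SD, n = 3) in controls and 25.5 ± 1.97 with the drug. HK2, the inducible form, measured 134, 148 and 62.1 CPM in controls and 109.9, 112 and 104 CPM with ADI-PEG20, so that the treated libraries lay between control replicate 3 and the other controls. Its log2 fold change was -0.08 ± 0.24 (adjusted p = 0.857) and, without that replicate, -0.38 ± 0.07 (adjusted p = 8.86e-05). The call for HK2 therefore rests on whether this library is used.

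The next enzymes of upper glycolysis all fell. GPI, which turns glucose 6-phosphate into fructose 6-phosphate, stood at 267, 277 and 428 CPM in controls and at 92.6, 95.9 and 81.1 CPM with ADI-PEG20, a log2 fold change of -1.85 ± 0.17 (adjusted p = 1.84e-05). TPI1, which interconverts the triose phosphates, changed by -1.64 ± 0.22 (adjusted p = 0.000226). Among the phosphofructokinases, which catalyse the committed step, the fall was -1.10 ± 0.14 for PFKM, -0.80 ± 0.16 for PFKL and -0.75 ± 0.10 for PFKP, on the log2 scale. PFKL was at 451, 480.1 and 749 CPM in controls against 316, 333 and 318 CPM, and its change was -0.53 without control replicate 3, a shift of more than 1.5 times on the log2 scale.

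The aldolases, which split fructose 1,6-bisphosphate, fell by 1.07 (ALDOA, SE 0.20) and 1.82 (ALDOC, SE 0.29) on the log2 scale. ALDOA, usually the main aldolase outside liver and brain, had only 2464 counts over all libraries. Of its exonic bases, 42.3% are shared with another annotated gene on the same strand, AC093512.2, and 13.3% with a gene on the opposite strand, so its count is uncertain. ALDOC went from 11.6, 9.01 and 9.71 CPM to 3.04, 3.97 and 1.57 CPM, with no overlap between the groups.

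The PFKFB enzymes set the level of fructose 2,6-bisphosphate, the strongest activator of phosphofructokinase, and they did not move together. PFKFB3, which mainly makes the activator, rose from 10.9, 12.2 and 9.99 CPM to 18.8, 17.6 and 18.5 CPM (log2 0.73 ± 0.13, adjusted p = 0.00127). PFKFB4 fell from 2.90, 4.41 and 5.24 CPM to 0.899, 1.45 and 1.61 CPM (log2 -1.65 ± 0.34, adjusted p = 0.00326). Both were free of overlap between the groups. Per kilobase, PFKFB3 made up 72.7% ± 6.74 of the summed level of the 3 PFKFB members in TOM-1 controls and 93.3% ± 1.90 with the drug. PFKFB2 had 0 counts in all 6 TOM-1 libraries, which allows up to 3 in each, and 47 counts over the RS4;11 controls.

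Lower glycolysis, which harvests ATP and NADH from the triose phosphates, fell at every step. GAPDH, which oxidises glyceraldehyde 3-phosphate and is widely used as a reference gene, measured 2313, 2235 and 3766 CPM in controls and 1254, 1270.0 and 1227 CPM with ADI-PEG20 (log2 -1.15 ± 0.17, adjusted p = 0.000446). PGK1, which makes ATP in the next step, fell from 589.7, 548 and 644 CPM to 213, 213 and 210.4 CPM (log2 -1.49 ± 0.10, adjusted p = 2.65e-06). PGAM1, a mutase, fell by 1.50 ± 0.11 on the log2 scale (adjusted p = 5.66e-06). The treated libraries were below all controls for each of these genes, and control replicate 3 was the highest control. PGK1 shares exonic bases with ATP7A on the same strand, which rose (log2 1.40, adjusted p = 0.00768), as did SENP1 on the strand opposite PFKM (log2 0.95, adjusted p = 0.00235).

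ENO1 and ENO2 encode enolases, which make phosphoenolpyruvate. ENO1 was at 1677, 1634 and 3320.1 CPM in controls and at 618, 612 and 605 CPM with the drug, a log2 fold change of -1.85 ± 0.23 (adjusted p = 0.000128) that became -1.44 ± 0.05 without control replicate 3. ENO2, the form named after neurons, fell from 34.2, 32.9 and 38.8 CPM to 17.6, 16.2 and 14.9 CPM (log2 -1.12 ± 0.26, adjusted p = 0.00608). PKM, the pyruvate kinase of most tissues, fell from 1252, 1274 and 2203 CPM to 397, 370.3 and 366 CPM, a log2 fold change of -2.06 ± 0.19 (adjusted p = 1.84e-05). Without control replicate 3, PKM was 3.35-fold lower, against 4.17-fold lower with it.

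Both lactate dehydrogenase genes fell, and the size for LDHB depended on 1 library. LDHA (chr11:18394388-18408425, plus strand, GRCh38) stood at 852, 798 and 1059 CPM in controls and at 300.2, 307 and 292 CPM with ADI-PEG20 (log2 -1.59 ± 0.12, adjusted p = 4.93e-06). LDHB stood at 78.7, 70.4 and 251 CPM in controls, with replicate 3 at 3.37 times the mean of the other two, and at 32.4, 32.1 and 28.9 CPM with the drug. Its log2 fold change was -2.10 ± 0.39 (adjusted p = 0.00172), and -1.26 ± 0.09 (adjusted p = 1.91e-10) without that replicate. LDHB shares 33.4% of its exonic bases with AC010197.2 on the same strand, which had next to no counts. Reads in the shared bases can have been dropped for both genes, so the level of LDHB is uncertain.

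The pentose phosphate enzymes fell as a group of 3. PGD, which makes NADPH in the oxidative branch, went from 226, 241 and 358 CPM to 110.5, 109 and 105 CPM (log2 -1.35 ± 0.15, adjusted p = 8.82e-05). TKT, the transketolase of the non-oxidative branch, went from 484, 472 and 748 CPM to 193, 191 and 198 CPM (log2 -1.55 ± 0.16, adjusted p = 4.8e-05). TALDO1, the transaldolase of that branch, had 163, 168 and 458 CPM in controls and 72.6, 74.0 and 70.0 CPM with ADI-PEG20. Its change of -1.86 ± 0.32 in log2 (adjusted p = 0.00111) became -1.20 ± 0.06 without control replicate 3, where it was 2.77 times the mean of the other controls.

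Genes of pyruvate dehydrogenase control moved less. PDHA1, the catalytic alpha subunit of the complex, fell from 239, 249 and 311 CPM to 150.1, 148 and 149 CPM (log2 -0.84 ± 0.12, adjusted p = 0.000277). The kinases that inactivate the complex did not pass the test: PDK1 gave -0.10 ± 0.15, PDK2 -0.15 ± 0.16 and PDK3 -0.36 ± 0.17 in log2. PDK3 measured 93.0, 90.9 and 61.0 CPM in controls against 69.4, 60.0 and 62.0 CPM, and it passed without control replicate 3 (log2 -0.53 ± 0.10, adjusted p = 0.000235). PDHA1 and PDK2 overlap a gene on the opposite strand in 21.3% and 38.6% of their exonic bases, and those neighbours, MAP3K15 and SAMD14, had mean levels under 1 CPM in every group. If strand was not used in counting, reads in the shared bases can have been dropped for both genes.

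The monocarboxylate carriers diverged. SLC16A1 (MCT1), which moves lactate and pyruvate with a proton, fell from 263, 267 and 175 CPM to 135, 145 and 139 CPM (log2 -0.75 ± 0.16, adjusted p = 0.00345). SLC16A6 (MCT7, ENSG00000108932, chr17:68267026-68291267, minus strand), described as a carrier of ketone bodies, had 10 counts in TOM-1 controls, all in replicate 1, and 805 counts in the treated libraries, at 11.6, 11.6 and 9.05 CPM. The ratio was 84.8, with a 95% counting interval of 45.9 to 177, and 65.3 without control replicate 3; the edgeR estimate was 6.48 ± 1.09 in log2 (adjusted p = 0.00101). Because all its control counts lie in 1 library, the estimate became 10.90 without TOM-1 control replicate 1 and is no bound.

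SLC16A6 shares 3.5% of its exonic bases with ARSG on the opposite strand, which rose as well (log2 3.99, adjusted p = 0.00325). A pseudogene of SLC16A6 took 3.33% of the reads of the pair over all libraries, and up to 20.0% in a single library. Whether reads were counted by strand is not given in the sources used here. SLC16A7 (MCT2), a high-affinity pyruvate carrier, gave 20.7, 17.0 and 4.36 CPM against 25.0, 27.9 and 25.1 CPM. Its treated libraries were above all controls, with an adjusted p of 0.112 that became 0.0253 without control replicate 3 (log2 0.46 ± 0.16). SLC16A3 (MCT4), the lactate exporter of glycolytic cells, gave 20.7 ± 3.80 CPM in controls and 15.1 ± 0.851 with the drug (adjusted p = 0.331). Per kilobase, SLC16A1 made up 92.8% ± 1.32 of the 4 carriers in TOM-1 controls and 80.9% ± 0.864 with ADI-PEG20, and SLC16A6 0.0437% ± 0.0757 and 8.14% ± 1.08.

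**Figure D3:**
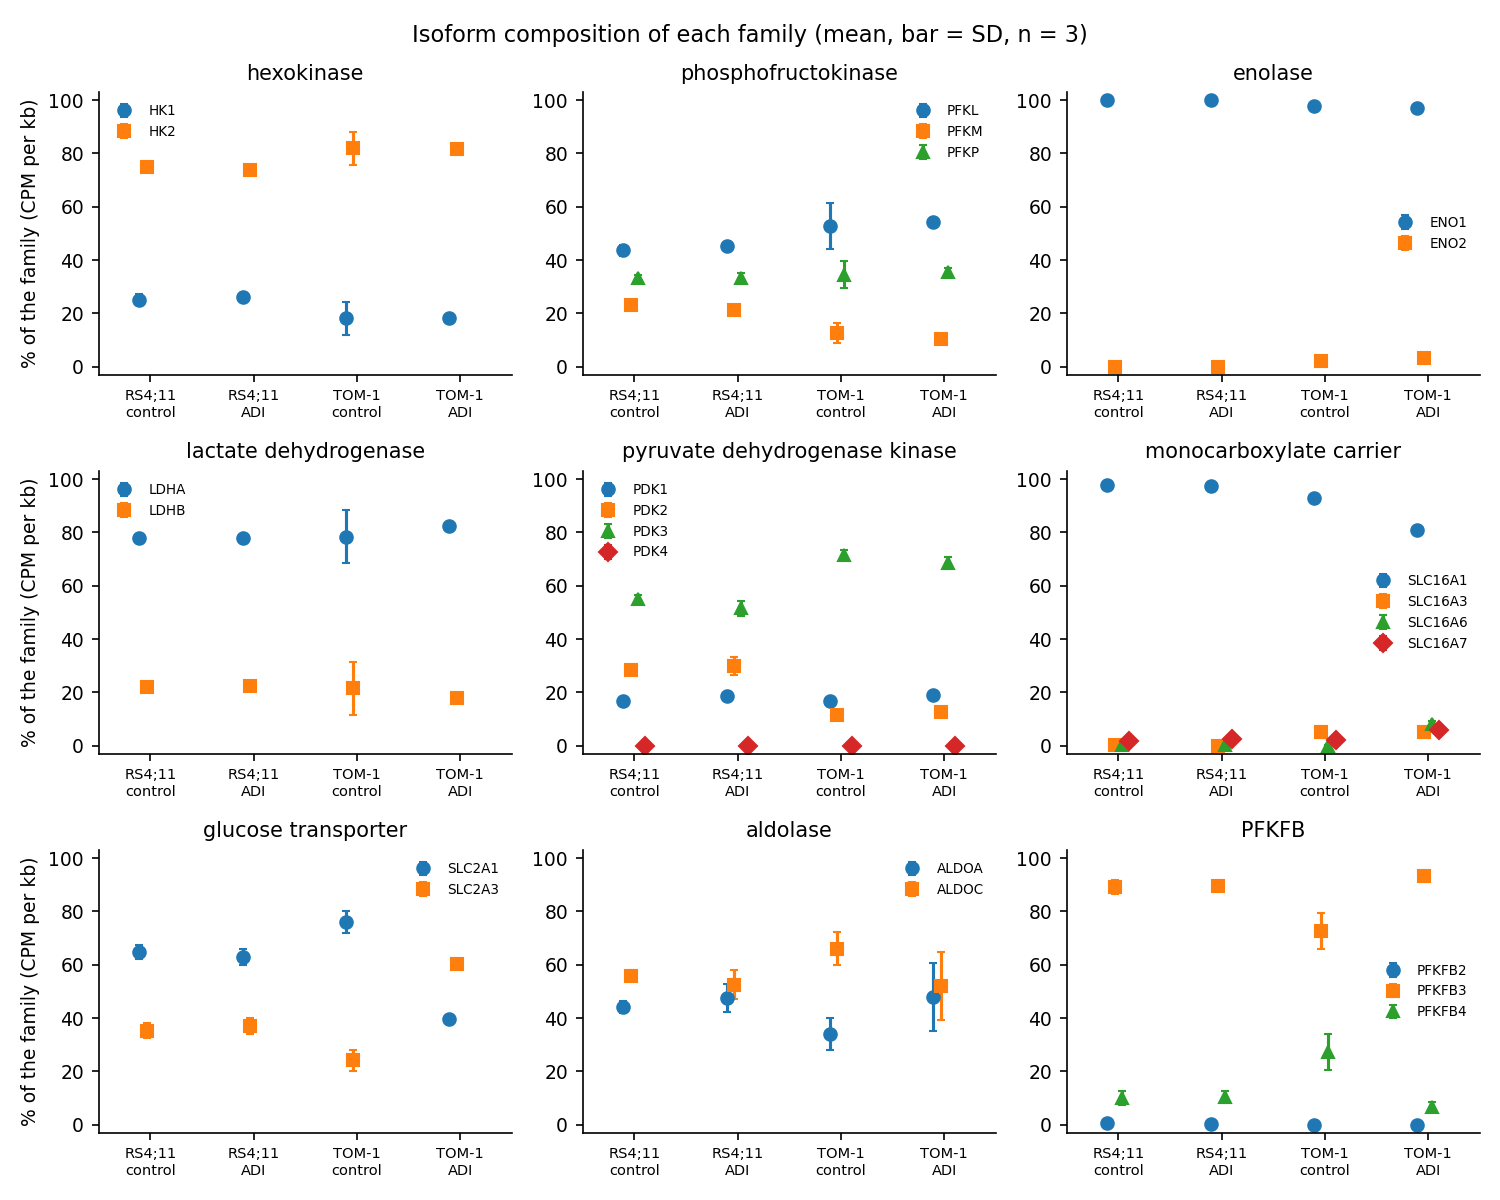
Share of each member in the summed level of the members of its family (vertical axis, % of CPM per kilobase of exon, mean with SD as bar, n = 3 libraries) in the 4 groups, for 9 families. Measured relatives that are not members are left out of the sums. The order of SLC2A1 and SLC2A3 is exchanged in treated TOM-1, and PFKFB3 takes 93.3% of the summed PFKFB members there. LDHA stays above LDHB and PDK3 above the other kinases in every group.

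Summed over the members, the pathway took 1.01%, 1.00% and 1.31% of all counts in the TOM-1 controls and 0.533%, 0.532% and 0.526% with ADI-PEG20. The treated libraries thus held about equal shares, all below the lowest control, and control replicate 3 held the largest. GAPDH, ENO1, PKM and LDHA supplied most of these counts: 0.596%, 0.586% and 0.845% of all counts in controls and 0.274%, 0.272% and 0.270% with the drug. The other 32 members together took 0.431% ± 0.0301 (SD, n = 3) and 0.258% ± 0.00213. In RS4;11 the members took 1.15%, 1.15% and 1.16% of counts in controls and 1.07%, 1.07% and 1.04% with ADI-PEG20.

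**Figure D4:**
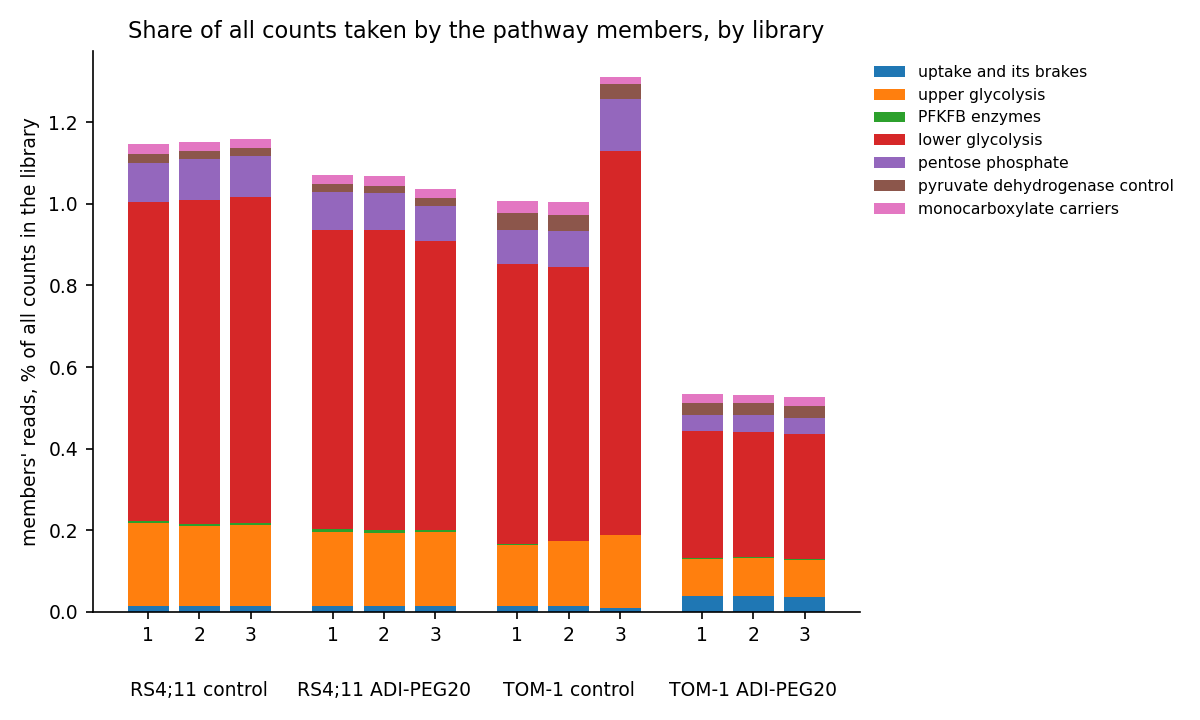
Share of all counts taken by the members in each library (bars, % of the library's counts, axis from 0), stacked by role, with replicate numbers 1 to 3 under each group's bars. Treated TOM-1 bars reach 0.526% to 0.533%, the bar of TOM-1 control replicate 3 is the highest at 1.31%, and lower glycolysis is the largest block in every library.

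Control replicate 3 departed from the other TOM-1 controls in both directions among the members. Its level over their mean ran from 0.231 for SLC16A7, 0.440 for HK2 and 0.635 for SLC2A3 up to 1.95 for TPI1, 2.01 for ENO1, 2.77 for TALDO1 and 3.37 for LDHB, and ARRDC4 and SLC16A6 had no read there. Members that fell with ADI-PEG20 and are higher in this library thus showed a larger fall with it than without it, and its part in the other results was not tested beyond leaving it out.

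The counts for further genes of these pathways in TOM-1 stand beside 15.9% of all tested genes called lower and 15.9% called higher, or 19.8% and 21.8% without control replicate 3. Of 29 further genes of glycolysis, the pentose phosphate pathway and glycogen, 21 were tested, of which 9 fell and 3 rose, with a median log2 fold change of -0.13 against 0.05 for all genes. BPGM, which makes 2,3-bisphosphoglycerate, fell by 1.18 ± 0.23, and PGLS, of the oxidative pentose phosphate branch, fell by 1.17 ± 0.31 and by 0.54 without control replicate 3, both on the log2 scale. RPIA, which makes ribose 5-phosphate, fell by 1.12 ± 0.18. TIGAR, a phosphatase that lowers fructose 2,6-bisphosphate, rose from 1.66 ± 1.43 to 8.70 ± 1.25 CPM (log2 2.34 ± 0.68, adjusted p = 0.0204). Without control replicate 3, 11 of the 21 fell and 4 rose.

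Of 19 further carriers and partners, 15 were tested, of which 4 fell and 1 rose (beside 15.9% of all genes in each direction), with a median log2 fold change of -0.16. BSG, the chaperone that brings SLC16A1 and SLC16A3 to the cell surface, fell from 525 ± 263 to 194 ± 10.1 CPM (log2 -1.44 ± 0.25, adjusted p = 0.00129; -0.95 without control replicate 3). The fructose transporter SLC2A5 fell by 1.16 ± 0.17 and SLC2A6 by 0.98 ± 0.24, while the myo-inositol transporter SLC2A13 rose by 1.62 ± 0.30, all in log2. Without control replicate 3, 7 of the 15 fell and 2 rose. Of 12 further pyruvate genes, 11 were tested, and the 1 lower and 2 higher are shares near those of all genes: pyruvate carboxylase (PC) fell (log2 -1.37 ± 0.16), and the phosphatase PDP1, which reactivates pyruvate dehydrogenase, rose (0.89 ± 0.16), as did PDHX (0.34 ± 0.12). Without that replicate all 12 were tested, and 4 fell and 2 rose.

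Among the other alpha-arrestins, 3 of 4 were tested and ARRDC3 rose, from 17.0 ± 6.07 to 81.8 ± 1.30 CPM (log2 2.26 ± 0.23, adjusted p = 3.49e-05). Among the regulators, part of which are not reported here, 3 rose, beside 15.9% of all tested genes called higher. Falls in this list are not counted here, so the rises do not show which way the list leaned. MLXIP, which encodes MondoA, rose by 0.70 ± 0.15 and HIF1A, the oxygen-regulated activator of many glycolytic genes, by 1.85 ± 0.25 in log2, from 153 ± 63.1 to 553 ± 28.1 CPM. PRKAA1, a catalytic subunit of AMPK, rose by 0.88 ± 0.28, and EPAS1, which encodes HIF-2 alpha, fell by 1.08 ± 0.26. Without control replicate 3, 3 regulators again rose, PRKAA1 by 0.54 in log2.

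Of 12 HIF-1 targets outside glycolysis, 10 were tested, with 3 higher and 1 lower beside 15.9% of all genes in each direction. The list's median log2 fold change was 0.07 against 0.05 for all genes. VEGFA, an angiogenic factor, rose by 1.49 ± 0.17, KDM3A, a histone demethylase, by 1.37 ± 0.27 and BNIP3L, a mitophagy receptor, by 0.76 ± 0.15, while P4HA1, a collagen prolyl hydroxylase, fell by 0.55 ± 0.13, all in log2. Without control replicate 3, EGLN1, an oxygen-sensing prolyl hydroxylase named here after its value was seen, was also called lower, giving 3 and 2. With all libraries the log2 fold change of EGLN1 had the other sign, at 0.16 (adjusted p = 0.846). These lists were chosen with results of the same libraries known, so their counts are a description.

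In RS4;11, no member was called with ADI-PEG20 (0 of 35, and 0 at an unadjusted p under 0.05 in edgeR; 0 also with DESeq2 and limma voom). Nor was any gene of the whole table: percent called was 0, with 325 of 17349 genes at an unadjusted p under 0.05. The median log2 fold change over the members was -0.13, against 0.00 for all genes. In 16 members all 3 treated libraries lay below all 3 controls, beside 9.05% of tested genes, and in 1 member, TXNIP, they lay above, beside 7.72%. In TOM-1 the same counts were 23 below, beside 20.1%, and 6 above, beside 26.1%.

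The values in RS4;11 were small. PKM measured 1929, 1909 and 1866 CPM in controls and 1709, 1686 and 1639 CPM with the drug (log2 -0.18 ± 0.18), and LDHA measured 885, 929 and 927 CPM and 796, 826 and 782 CPM (log2 -0.19 ± 0.11). Neither pair of groups overlapped, and neither gene was called. TXNIP measured 52.7, 50.5 and 53.1 CPM in controls and 65.8, 57.8 and 58.5 CPM with ADI-PEG20 (log2 0.22 ± 0.14). GPI, TPI1, GAPDH, PGK1, PGAM1, ENO1, PGD, TKT, TALDO1, HK2, PFKM, ALDOC, PFKFB2 and PDHA1 were the other members with every treated library below every control.

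The SE in this comparison draws on the spread over all 12 libraries. Without TOM-1 control replicate 3 the log2 fold change of PKM was again -0.18 but with an SE of 0.04 (adjusted p = 0.0783), and that of LDHA -0.19 ± 0.05 (adjusted p = 0.0851). Then 16 members had an unadjusted p under 0.05 and still none was called, beside 0.317% of all tested genes. ARRDC3 was called in that fit (log2 0.67 ± 0.12, adjusted p = 0.0255), the only gene of the 6 further lists that was.

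The difference of the drug effect between the lines was tested directly. In 23 of 35 members it passed the threshold: in 5 the effect was higher in TOM-1, beside 5.89% of all tested genes, and in 18 it was lower, beside 6.05%. The 5 were SLC2A3 (1.65 ± 0.25), TXNIP (1.89 ± 0.20), ARRDC4 (5.65 ± 0.60), PFKFB3 (0.65 ± 0.18) and SLC16A6 (6.17 ± 1.65), as differences of log2 fold changes. All 8 genes of lower glycolysis and all 3 of the pentose phosphate pathway were among the 18, with PKM at -1.88 ± 0.26 (adjusted p = 0.0011) and LDHA at -1.40 ± 0.16 (adjusted p = 0.000409). SLC2A1 (-0.48 ± 0.16, adjusted p = 0.08), PFKL (adjusted p = 0.0622), ALDOA (adjusted p = 0.0515) and SLC16A1 (adjusted p = 0.0564) missed it. Without TOM-1 control replicate 3 the counts were 5 and 23, beside 15.7% and 14.7% of genes, and these 4 members and HK2 (-0.25 ± 0.09, adjusted p = 0.0444) passed.

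Of the 23 calls, 15 held whichever library was left out. PFKFB3 lost its call in 10 of the 12 fits without 1 library (highest adjusted p 0.122), LDHB in 9 (0.0863), TALDO1 in 8 (0.0629), SLC16A6 in 8 (0.18), PFKFB4 in 6 (0.0769) and ALDOC in 5 (0.08). PFKP lost it without TOM-1 ADI-PEG20 replicate 1 (0.0554) and ENO2 without RS4;11 control replicate 2 (0.0549). None of the 8 lost it without TOM-1 control replicate 3, though LDHB (-1.09) and TALDO1 (-1.07) were then smaller by over 1.5 times, and SLC16A6 was 10.60 without TOM-1 control replicate 1.

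In control culture some members differed between the lines, in a test of TOM-1 against RS4;11. Of 35 members, 8 were higher in TOM-1, beside 16.2% of all genes, and 8 were lower, beside 18.4%. With all libraries both counts are near the shares of all genes, so they mark no trait of the pathway. That reading does not cover the fit without TOM-1 control replicate 3. There 27 members were called, more of them lower than higher, as given below. ENO2 measured 34.2, 32.9 and 38.8 CPM in the TOM-1 libraries and 0.472, 0.330 and 0.670 CPM in those of RS4;11, and SLC16A3 averaged 20.7 ± 3.80 and 0.652 ± 0.322 CPM. The ratio was 72.3 (95% counting interval 51.4 to 105) for ENO2 and 31.5 (23.4 to 43.6) for SLC16A3. PDK1, PDK3 and PDHA1 were higher in TOM-1 by 1.29 ± 0.15, 1.67 ± 0.18 and 0.88 ± 0.12 in log2, and SLC2A1, PFKL and PFKP by 0.41 ± 0.12, 0.59 ± 0.16 and 0.32 ± 0.10.

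Lower in TOM-1 were ARRDC4, with 4 counts against 329, HK1 (log2 -1.46 ± 0.14), PFKFB3 (-2.05 ± 0.13), ALDOA (-0.94 ± 0.20), GPI (-0.67 ± 0.16), PFKM (-0.60 ± 0.14), HK2 (-0.72 ± 0.24) and PFKFB2, which had 47 counts in RS4;11 controls and none in TOM-1. TXNIP did not differ detectably: its means were 51.8 ± 10.2 CPM for TOM-1 and 52.1 ± 1.36 CPM for RS4;11 (log2 -0.01 ± 0.14, adjusted p = 0.971). ARRDC4, its relative, was thus low in the line in which it later rose, and its level in treated TOM-1, 3.10 ± 0.493 CPM, was under the 4.83 ± 1.26 CPM of untreated RS4;11.

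Without TOM-1 control replicate 3, 27 members were called, 11 higher beside 25.4% of genes and 16 lower beside 27.5%. ENO1, LDHB and TALDO1 changed sign: they were 0.28, 0.10 and 0.50 in log2 with all libraries, not called, and -0.14, -0.74 and -0.17 without that library, all called lower in TOM-1. PKM (-0.59 ± 0.05) and TPI1 (-0.66 ± 0.06) were then also lower, while the values of HK2 and PFKL shrank to -0.42 and 0.32. Leaving out other libraries ended the calls of PFKP in 10 fits (highest adjusted p 0.171), SLC2A1 in 4 (0.109), HK2 in 4 (0.0828) and PFKL in 3 (0.0759).

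**Figure D5:**
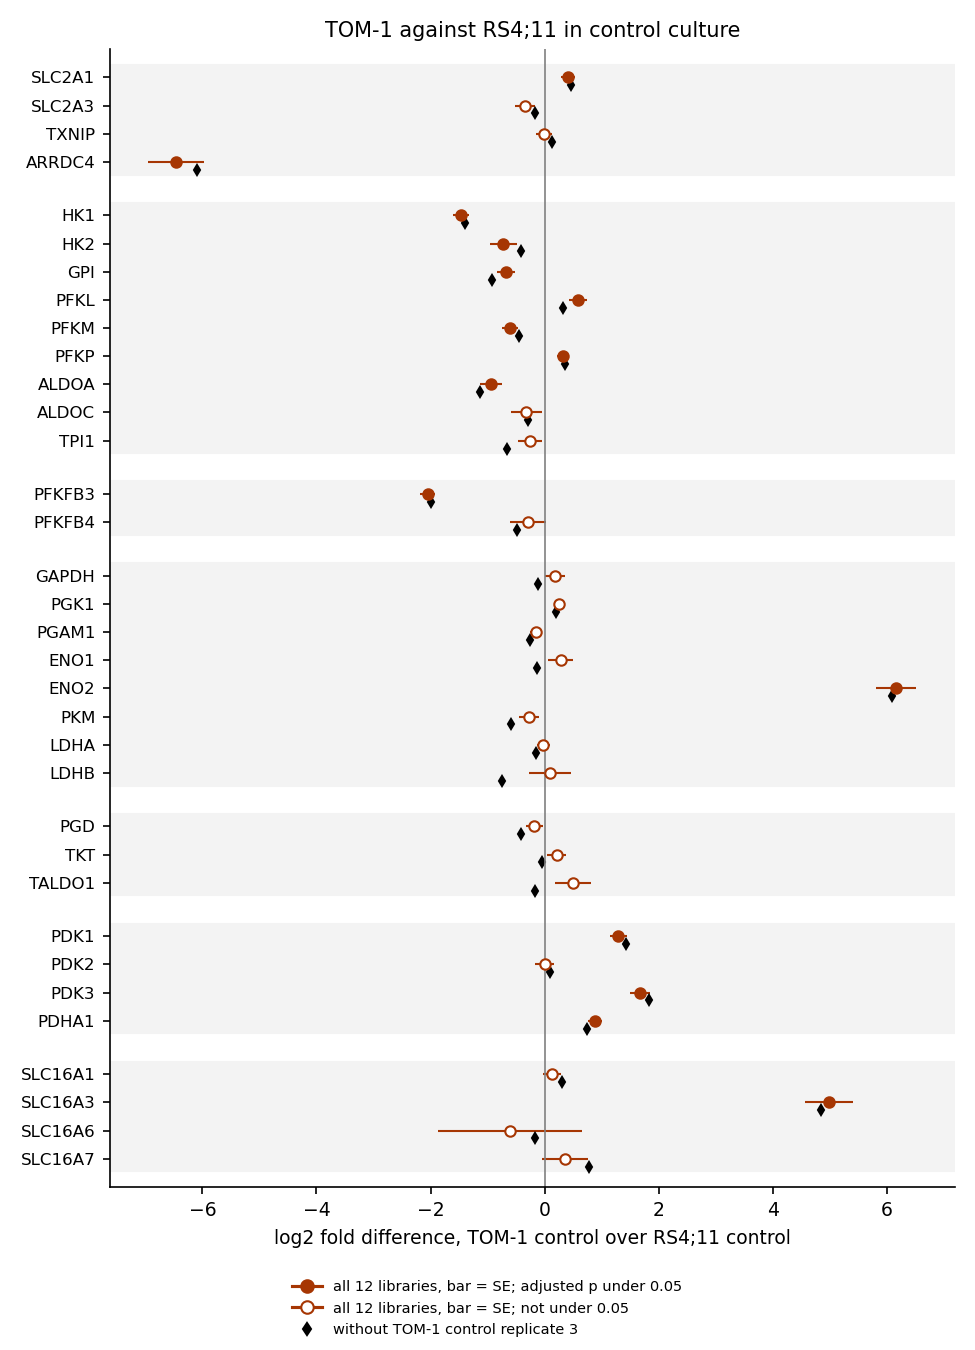
Log2 fold difference of 34 members (rows, grouped by role in shaded blocks) in control culture, TOM-1 over RS4;11; circles are estimates from all 12 libraries with the SE as bar, filled where the adjusted p is under 0.05, and diamonds are estimates without TOM-1 control replicate 3. ENO2 and SLC16A3 lie far to the right and ARRDC4 far to the left, and the diamonds of ENO1, LDHB and TALDO1 lie on the other side of 0 from their circles; PFKFB2 and PDK4, without a read in TOM-1, are not drawn.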

How the data were processed

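The authors deposited 1 table of raw read counts per Ensembl gene for 12 libraries; per the labels' protocols, libraries were made from poly(A) RNA. STAR, SAMtools, featureCounts and hg38 are named in the submitters' processing notes, without versions. The annotation release and the use of strand are not given in the sources used here, so reads of overlapping genes can be split, dropped or shared.

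Groups and replicate numbers came from the sample titles. Gene symbols came from an Ensembl name table (60463 of 60664 identifiers matched), and lengths, positions and overlaps from GENCODE 29 on GRCh38 (58396 matched). The 29301 genes with 0 counts in every library stayed in the table. No 2 libraries of a group agreed within sampling noise. Counts were fitted in R 4.3.3 with edgeR 4.0.16 (filterByExpr, TMM, 1 group-means model over all 12 libraries, glmQLFTest, Benjamini-Hochberg adjustment over all tested genes, threshold 0.05). The SE is the size of the log2 fold change over the square root of F. Alternatives used DESeq2 1.42.0, limma 3.58.1, length offsets, other filters, a replicate block and each library left out. Counting intervals are exact binomial at 95% and, like the limit of 3 counts for a count of 0, cover counting error only: there are no molecular identifiers, so reads need not be separate molecules. The fits were tested on simulated data, and figures were drawn with matplotlib 3.10.9.

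All 36 members are named, and of 6 lists with 88 further genes at most 4 called genes each, those with a mean of 5 CPM or more over all libraries and the largest change in TOM-1. Part of the list of regulators is not reported here. The members and lists were chosen with earlier results of these data known. Promoter windows came from RefSeq (GRCh38.p14).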

Additional observations from a re-analysis of the deposited data

Results flagged for a closer look

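The drug effect differed between the lines, by the interaction contrast in edgeR with Benjamini-Hochberg adjustment, for 23 members. The differences of log2 fold changes, TOM-1 minus RS4;11, were as follows. For uptake genes they were 1.65 (SLC2A3), 1.89 (TXNIP) and 5.65 (ARRDC4). In upper glycolysis they were -1.63 (GPI), -0.86 (PFKM), -0.63 (PFKP), -1.48 (ALDOC) and -1.46 (TPI1). The PFKFB enzymes gave 0.65 (PFKFB3) and -1.79 (PFKFB4). In lower glycolysis they were -1.06 (GAPDH), -1.38 (PGK1), -1.32 (PGAM1), -1.69 (ENO1), -1.94 (ENO2), -1.88 (PKM), -1.40 (LDHA) and -1.92 (LDHB). The pentose phosphate enzymes gave -1.18 (PGD), -1.39 (TKT) and -1.74 (TALDO1). PDHA1 gave -0.70 and SLC16A6 gave 6.17. Groups of 3 libraries were too small to be screened for single outlying values.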

How the results depend on the processing

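In TOM-1 the 27 called members numbered 26 to 32 under the alternatives run: 26 when only the 6 TOM-1 libraries were fitted (PFKL, at -0.84 in log2, was lost), 30 without TOM-1 control replicate 3 and 32 with limma voom and quality weights. The count over all genes, 5527, was 2639 with only the libraries compared and 8434 with limma voom, which gave TOM-1 control replicate 3 a weight of 0.0352. In RS4;11 the count over all genes, 0, was 3, 17 and, leaving out 1 library at a time, 0 to 58, the highest without TOM-1 control replicate 3. For the difference, 2072 genes became 3215 with DESeq2, 5868 with voom and 1169 to 5567 leaving out 1 library. Between lines in control culture, 16 members and 6014 genes became 10 and 3548 with only the libraries compared, 25 and 10037 with voom, and 12 to 27 and 4731 to 9681 leaving out 1 library, the highest without TOM-1 control replicate 3. The signs of the HK2 difference (-0.25) and of ENO1 (-0.14), LDHB (-0.74, also -0.74 with voom) and TALDO1 (-0.17) between lines turned without that library; leaving out 1 library at a time these ran up to 0.24 (HK2), 0.42 (ENO1), 0.36 (LDHB) and 0.71 (TALDO1), and the cause was not tested.

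The labels state no pairing of samples by replicate number. Deviations of same-numbered libraries from their group means correlated at -0.027, -0.012 and -0.062 in TOM-1 and at 0.057, 0.031 and 0.145 in RS4;11. Between libraries of different numbers the values ran from -0.053 to 0.07 in TOM-1 and from -0.095 to 0.055 in RS4;11. With means of 3 libraries, and TOM-1 control replicate 3 among them, these values cannot exclude a pairing. A replicate block left 27 members called in TOM-1, 0 in RS4;11, 23 for the difference and 16 between lines. A replicate block without TOM-1 control replicate 3, added after the data were seen, called 5 members in RS4;11 (GPI, TPI1, ENO1, PKM and LDHA) among 209 genes, 5719 genes for the difference, and 28 members and 9657 genes between lines. In that fit the HK2 difference was -0.23 and, between lines, GAPDH was -0.12, ENO1 -0.16, LDHB -0.80 and TALDO1 -0.19. Depth limits ARRDC4 in TOM-1, PFKFB2 and SLC16A6 in both lines, and ENO2 and SLC16A3 in RS4;11, which had under 60 counts in at least 1 group.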

Other observations

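PFKFB2 was not the only gene at its place without a read in TOM-1. YOD1, a deubiquitinase gene that overlaps it on the opposite strand, averaged 11.7 CPM in RS4;11 controls and 8.88 CPM with ADI-PEG20 and was also at 0 in both TOM-1 groups. YOD1 was singled out after its values were seen.

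GAPDH and PGK1 serve as reference genes in many RT-qPCR assays. Treated TOM-1 held them at 0.451 and 0.357 of their control level by edgeR (0.549 and 0.372 without TOM-1 control replicate 3), and treated RS4;11 at 0.938 and 0.931. ENO1 and TPI1 stood at 0.277 and 0.321 in TOM-1 and at 0.895 and 0.881 in RS4;11.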
